A study of Mus musculus with 6 samples.

Results

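Nuclei with the glutamatergic marker Slc17a7 and little or no Hs3st4 were examined in dissected mouse striatum. The nuclei were chosen by their deposited values: Slc17a7 of at least 2, Hs3st4 of at most 4, Gad1 plus Gad2 of at most 1, Rgs9 plus Pde10a of at most 7, and Mog plus Mag of at most 1. The rule picked 1678 of 48834 nuclei, or 3.44%, and these are called the selected nuclei here. A further 1029 nuclei met the same limits but had Hs3st4 of 5 or more, and these Hs3st4-high nuclei served for comparison. Of the 6 libraries, 3 were labelled wild type and 3 Celsr3 heterozygous, numbered as biological replicates 1 to 3 of each genotype. The nature of the Celsr3 allele, strain, sex and age were not given in the labels used here. Nuclei had been taken from flash-frozen striatum and sequenced with 10x Genomics 3′ v3.1 chemistry on a shared lane. The design compares the 2 genotypes in this region.

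Slc17a7 encodes VGLUT1, the transporter that loads glutamate into the synaptic vesicles of most cortical, hippocampal and amygdalar excitatory neurons. Projection neurons of the striatum itself are GABAergic, and glutamatergic cell bodies lie around it, in cortex, claustrum, amygdala and thalamus. Hs3st4 encodes a sulfotransferase that adds the 3-O-sulfate of heparan sulfate and marks corticothalamic neurons of layer 6, among others. Car10, the other marker of the label, encodes a carbonic anhydrase-related protein without catalytic activity that binds neurexins. Celsr3 encodes a seven-pass cadherin of the planar cell polarity family that is required for the growth of major forebrain axon tracts.

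The values are whole numbers per gene and nucleus that had been corrected for depth, so the original number of molecules per nucleus is unknown. The total per nucleus ran from 4523 to 10638, with a coefficient of variation of 10.7%, and the number of genes detected was used as a measure of complexity. The libraries held 7735, 7890 and 8081 wild-type nuclei and 7890, 8363 and 8875 heterozygous nuclei. A total of 20 selected nuclei carried a barcode found in more than 1 library, and no barcode was shared between selected nuclei of different libraries. A doublet score above 0.25 was found in 22 selected nuclei. Levels below are mean values per nucleus on the deposited scale. Sub-cluster levels are means over all nuclei of the sub-cluster, and levels of larger sets are means ± SD of 6 library means.

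The selected nuclei were not a single cell type, and a substantial share carried glial or vascular markers. Clustering gave 19 sub-clusters, which fell into sets by the number of genes detected. In 10 sub-clusters the median was 3289.5 to 3871 genes per nucleus, and these gene-rich sub-clusters held 1120 nuclei, or 66.7%. In the other 9 the median was 1664 to 2041, and these gene-poor sub-clusters held 558 nuclei, or 33.3%. The divide, at 2500 genes, was set after the data were seen. The label of glutamatergic neuron rests on Slc17a7, which the rule selected on, and on Car10, which averaged 10.3 ± 1.65 (SD, n = 6) in the gene-rich set against 0.786 ± 0.289 in the gene-poor set. Sv2b, a synaptic vesicle protein of glutamatergic terminals, stood at 3.99 ± 0.266 and 0.565 ± 0.159.

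**Figure D1:**
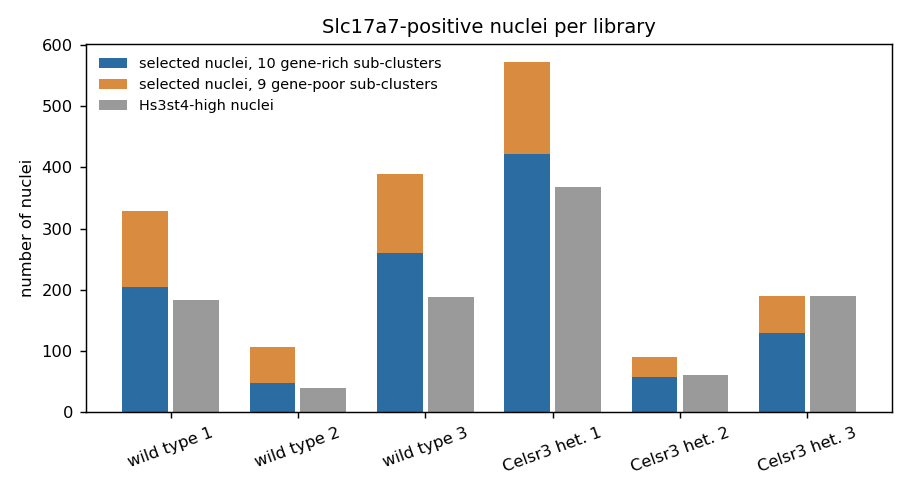
Number of selected nuclei in each library, split into gene-rich and gene-poor sub-clusters, beside the Hs3st4-high nuclei. Heterozygous replicate 1 gave 573 selected nuclei and heterozygous replicate 2 gave 90, so the libraries contribute very unequally.

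The gene-poor sub-clusters were led by markers of other cell types. Sub-cluster 4, with 167 nuclei, was astrocyte-like, with Slc1a2, the main astrocytic glutamate transporter, at 51.1 and the water channel gene Aqp4 at 1.49. Sub-cluster 12, with 45 nuclei, was also astrocyte-like and was led by Etnppl, Agt and the GABA transporter gene Slc6a11. Sub-cluster 6, with 151 nuclei, was microglia-like, with the fractalkine receptor gene Cx3cr1 at 7.42 and the colony-stimulating factor receptor gene Csf1r at 5.29. Sub-cluster 10, with 53 nuclei, was endothelial-like, with the VEGF receptor gene Flt1 at 15.5 and the tight-junction gene Cldn5 at 5.60. Sub-cluster 14, with 30 nuclei, was oligodendrocyte precursor-like, with Pdgfra at 3.43, and sub-cluster 18, with 7 nuclei, was oligodendrocyte-like, with St18 at 13.0. The other 3 stayed unnamed: sub-cluster 15, with 30 nuclei, was led by Lama1, Slc38a11 and Abcc9, and sub-cluster 19, with 6 nuclei, by ciliary genes such as Dnah12. Sub-cluster 9, with 69 nuclei, was led by Pmch, the gene of the melanin-concentrating hormone precursor, and by Dlx6os1, and had the highest Slc17a7 of all 19 sub-clusters, at 4.43. Its Car10 was at 0.594, and 7 of 9 medium spiny neuron markers were more than 2-fold above the other selected nuclei, among them Rgs9, which the rule limits. The summed level of the 6 astrocyte markers was 31.0 in gene-poor nuclei (23.7 to 38.9 over libraries) and 2.86 in gene-rich nuclei (1.28 to 3.67). For the 5 microglial markers the sums were 6.95 (6.09 to 7.87) and 0.733 (0.426 to 0.988).

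Slc17a7 in the gene-poor nuclei sat mostly at the lowest value the rule admits. It was exactly 2 in 76.5% of them, against 37.9% of gene-rich and 34.6% of Hs3st4-high nuclei. The median share of detected genes that stood at a value of 1 was 29.6% in gene-poor nuclei and 72.7% in gene-rich nuclei, so a value of 2 was close to the smallest step in many gene-poor nuclei. For comparison, the same Slc17a7 level was met by 7.44% of the 8828 nuclei with Mog plus Mag of at least 4, oligodendrocyte markers, at a median of 1911 genes (3.64% to 16.3% over libraries). It was met by 6.45% of the 3116 nuclei with Aqp4 plus Gja1 of at least 4, astrocyte markers, at a median of 2085 genes, and by 1.45% of the 14434 nuclei with Rgs9 plus Pde10a of at least 20, medium spiny neuron markers, at 3317 genes. Since the rule selected on Slc17a7, its level is not read as a sign of a glutamatergic neuron in the gene-poor sub-clusters. Of the 22 selected nuclei with a high doublet score, 16 were gene-poor. The part of free RNA and of doublets in the gene-poor nuclei was not tested.

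Values around the limits of the rule showed the same division. Of the 851 nuclei with Slc17a7 at 2, the lowest admitted value, 50.2% were gene-poor. The share was 17.3% among the 369 nuclei at 3, and 14.6% among the 458 nuclei at 4 or more. Just outside, 1020 nuclei met every other limit with Slc17a7 at 1, and their Sv2b averaged 1.50. At the other limit, the 89 nuclei with Hs3st4 at 4 had Sv2b at 3.25, and the 65 nuclei at 5, just outside, had 3.22. There were 109, 89, 65 and 53 nuclei at Hs3st4 values of 3, 4, 5 and 6, with no gap at the limit, and 923 of the selected nuclei had a value of 0. Because the rule used these values, they are given as a description.

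**Figure D2:**
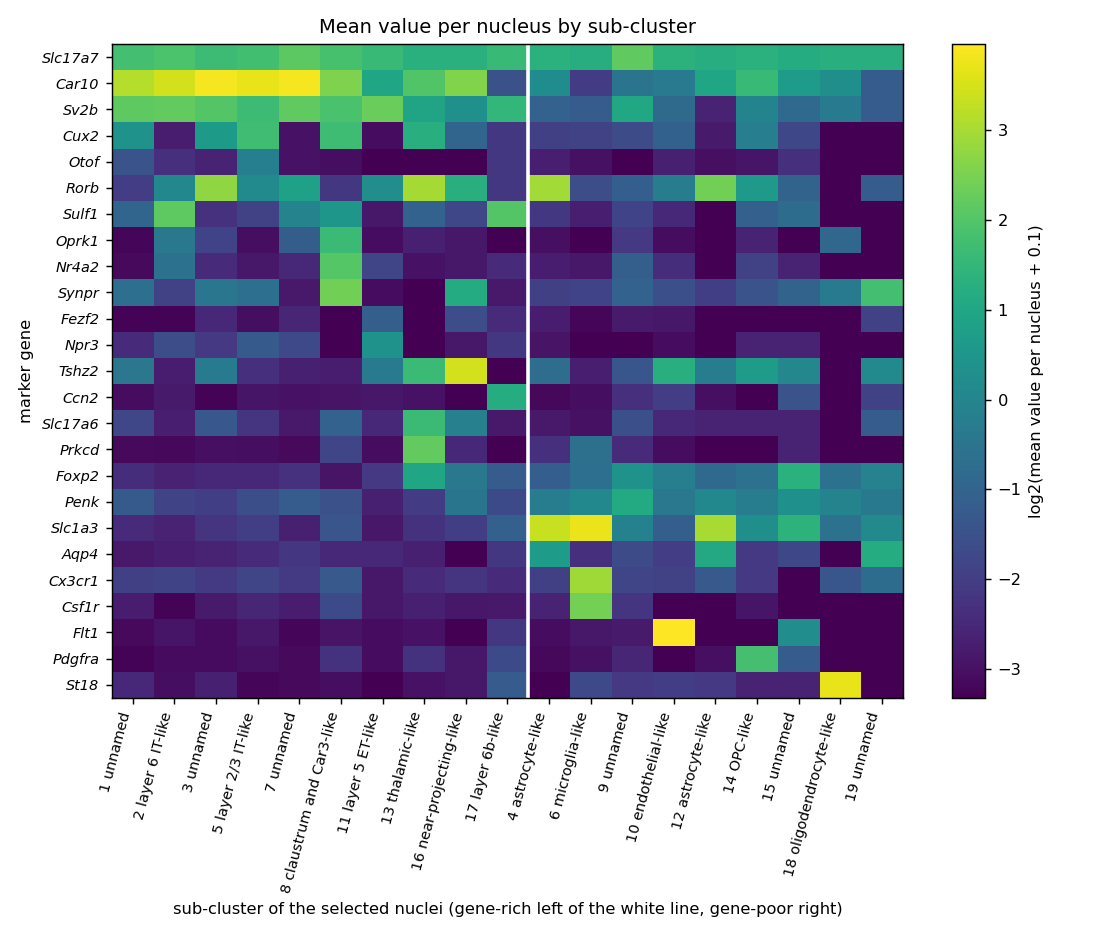
Marker genes (rows) in the 19 sub-clusters (columns), shaded by log2(mean value per nucleus + 0.1), with the gene-rich sub-clusters first. Slc17a7 is present throughout because it was used for selection, whereas Car10 is high in most gene-rich sub-clusters, though not in the layer 6b-like one, and Slc1a3, Cx3cr1 and the endothelial marker Flt1 are each high in some gene-poor ones.

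The gene-rich nuclei were set apart from the Hs3st4-high nuclei by few strong genes on their own side and by layer 6 corticothalamic and layer 6b markers on the other. These differences follow from the selection and are given without a test. Slc26a4, an anion exchanger gene, averaged 0.450 in gene-rich and 0.0284 in Hs3st4-high nuclei, a 12-fold difference on the mean + 0.01 scale used for every fold here. C1ql3, which encodes a secreted synaptic organiser, was 7.02-fold higher, Ccbe1 6.23-fold and Palmd 5.83-fold. Ptprk, a receptor tyrosine phosphatase gene, was at 4.99 against 1.27. In the other direction, Foxp2, a transcription factor of deep-layer neurons, was at 0.144 ± 0.130 in gene-rich and 2.94 ± 1.28 in Hs3st4-high nuclei. Tle4, a corepressor of corticothalamic neurons, was at 0.295 ± 0.0622 and 2.92 ± 0.911. With Hs3st4, which the rule used, left out, the other 6 corticothalamic markers summed to 2.02 in gene-rich nuclei (1.37 to 2.48 over libraries) and to 10.8 in Hs3st4-high nuclei (8.30 to 17.0). The 5 layer 6b markers summed to 0.136 (0.0698 to 0.196) and 1.78 (0.611 to 4.03), and among them Svil was 21.7-fold and Ccn2 7.51-fold higher in Hs3st4-high nuclei. Slc17a7, also used by the rule, was at similar levels in both sets, 3.57 ± 0.346 and 3.62 ± 0.261.

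When all selected nuclei were compared with Hs3st4-high nuclei, glial genes led the list instead. Fli1 was 18.9-fold higher, the microglial and astrocytic phagocytic receptor gene Mertk 15.7-fold, the astrocytic transporter gene Slc1a3 14.4-fold, Dock8 13.2-fold and Siglech 11.0-fold. With Slc17a7 of at least 4 required in both sets, the log2 fold went from 4.24 to 3.09 for Fli1, from 3.97 to 1.90 for Mertk, from 3.84 to 1.43 for Slc1a3, from 3.72 to 2.13 for Dock8 and from 3.46 to 1.93 for Siglech. Slc1a3 itself was at 7.73 ± 2.70 in gene-poor and 0.115 ± 0.0455 in gene-rich nuclei. Against the 47156 nuclei outside the selection, called unselected, of which the Hs3st4-high nuclei are a small part, the genes of largest fold in gene-rich nuclei included Smoc2 (20.5-fold), Slc26a4 (19.3-fold), Gm34567 (17.5-fold) and Rspo2 (16.4-fold). Ntng2, which encodes a netrin-G that anchors presynaptic contacts, was 13.6-fold higher, and Tafa1 was at 13.1 against 1.17. Bdnf, the neurotrophin that corticostriatal axons deliver to the striatum, was at 0.596 ± 0.232 against 0.0472 ± 0.0191, or 10.6-fold higher. Medium spiny neuron markers other than Rgs9 and Pde10a, which the rule limits, summed over 7 genes to 1.21 in gene-rich nuclei (0.962 to 1.85 over libraries) and to 5.10 in unselected nuclei (4.60 to 6.52).

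Of the 10 gene-rich sub-clusters, 7 carried the markers of a known projection class and 3 stayed unnamed. A name required at least 3 markers and 75% of the list at more than 2-fold above the other selected nuclei, with a mean of at least 0.1. Sub-cluster 5, with 153 nuclei, was layer 2/3 intratelencephalic-like, that is, like upper-layer neurons that project within the telencephalon. The homeobox gene Cux2 was at 3.22 there, Otof at 0.784 and the calcium buffer gene Calb1 at 1.22. Sub-cluster 2, with 186 nuclei, was layer 6 intratelencephalic-like, with the neuropeptide S receptor gene Npsr1 at 3.65, the heparan sulfate 6-O-endosulfatase gene Sulf1 at 4.32 and Cdh13 at 6.55. Cdh13 was higher still in sub-clusters 8 (6.77), 11 (7.77) and 17 (11.5). Oprk1 and Osr1, of the same list, were at 0.661 and 0.102 in sub-cluster 2, and Oprk1 was higher in sub-cluster 8. Sub-cluster 8, with 101 nuclei, was claustrum and Car3-like, with Nr4a2 at 4.04, the kappa opioid receptor gene Oprk1 at 3.05, Gnb4 at 3.6, Synpr at 5.22 and Ntng2 at 7.61.

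The smaller named sub-clusters covered deep-layer and subcortical classes. Sub-cluster 11, with 53 nuclei, was layer 5 extratelencephalic-like, like the neurons that project to brainstem and spinal cord, with 6 of 6 markers raised. It also met 4 of 5 piriform markers, and the single list gene among its 10 leading genes was Parm1, a layer 5 intratelencephalic marker. Where a sub-cluster met several lists, the list with the highest share of raised markers gave the name, and a tie, as in sub-cluster 3, gave none. No name was given either where 2 or more other lists had at least as many genes among the 10 leading genes, as in sub-cluster 9. The leading gene of sub-cluster 11 was Tcerg1l, at 3.51 against 0.0455 in the other selected nuclei, and it held Fezf2, a determinant of subcerebral projection neurons, at 0.358 and Npr3 at 1.21. Sub-cluster 16, with 26 nuclei, was near-projecting-like, with the zinc-finger gene Tshz2 at 10.9 and the transcription factor gene Ebf2 at 4.69. Sub-cluster 17, with 24 nuclei, was layer 6b-like, like the remnant of the subplate, with Ccn2 at 2.17, Cplx3 at 0.333 and the olfactory receptor gene Olfr115 at 1.67. Sub-cluster 13, with 36 nuclei, was thalamic-like, with the VGLUT2 gene Slc17a6 at 3.00, Tcf7l2 at 6.69, Lef1 at 7.31 and Prkcd at 4.56.

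The 3 unnamed gene-rich sub-clusters held 541 nuclei, close to the 579 of the named ones. Sub-cluster 1, the largest with 217 nuclei, was led by Ndst4 (5.39 against 0.117 in the other selected nuclei), Abi3bp (2.65 against 0.171) and Tafa2 (19.9 against 2.04). It had Slc17a7 at 3.32, Sv2b at 4.36 and Car10 at 8.76, all within the range of the other gene-rich sub-clusters. Sub-cluster 3, with 183 nuclei, was led by the sodium channel gene Scn7a (0.383 against 0.0254) and had Rorb, a nuclear receptor of layer 4, at 6.69. It met the lists of layer 4/5 intratelencephalic and of basolateral amygdala neurons equally, with 4 of 5 markers each. Sub-cluster 7, with 141 nuclei, was led by Gadl1 (0.645 against 0.0716) and held the highest Slc17a7 of the gene-rich sub-clusters, at 4.30, with Hs3st2 at 3.11.

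Car10, the second marker of the label, was not even across the gene-rich sub-clusters. It was at 14.5 in sub-cluster 3, 14.3 in sub-cluster 7, 13.0 in the layer 2/3-like and 11.0 in the layer 6 intratelencephalic-like nuclei. It was at 5.74 in the claustrum-like, 3.86 in the thalamic-like, 1.89 in the layer 5 extratelencephalic-like and 0.25 in the layer 6b-like nuclei. The label by Car10 therefore held for most but not all of the gene-rich nuclei.

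Libraries differed widely in which sub-clusters they contributed. Sub-cluster 1 made up 12.7%, 4.17% and 25.4% of the gene-rich nuclei in wild type, against 22.5%, 45.6% and 1.55% in heterozygous libraries. The layer 2/3-like share was 5.88%, 0% and 23.5% in wild type and 18.2%, 1.75% and 1.55% in heterozygous libraries. The claustrum-like share was 39.6% in wild-type replicate 2 and 5.43% to 10.5% in the other 5 libraries. The thalamic-like share was 10.3%, 2.08% and 2.69% in wild type, and no thalamic-like nucleus was found among the 422 and 57 gene-rich nuclei of heterozygous replicates 1 and 2, while replicate 3 had 5.43%. The layer 6 intratelencephalic-like share was the most even, at 12.7%, 25% and 11.5% in wild type and 20.9%, 22.8% and 13.2% in heterozygous libraries. The near-projecting-like share was 0.490%, 0% and 1.54% against 1.90%, 3.51% and 8.53%, so the groups did not overlap, over 26 nuclei in all. Over the 10 gene-rich shares the exact permutation p was 0.1 for the near-projecting-like nuclei, the smallest 3 against 3 can give, and 0.5 to 0.9 for the others, with Benjamini-Hochberg adjusted values of 0.889 to 0.9. The sub-clusters were made from the same values, and the position of each dissection relative to cortex, claustrum and thalamus was not given in the sources used here.

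**Figure D3:**
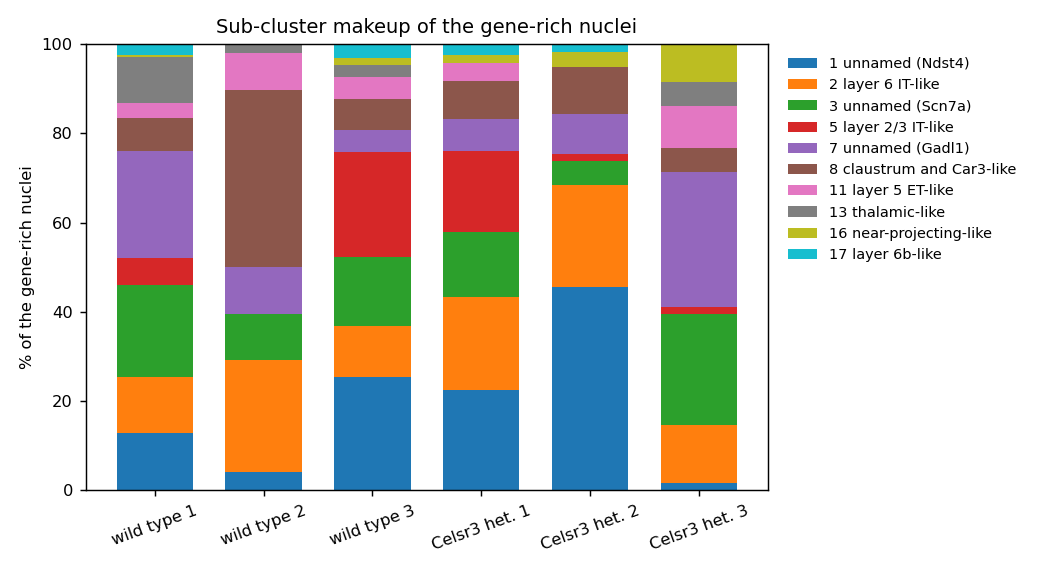
Share of each gene-rich sub-cluster among the gene-rich nuclei of each library, in percent, for the 3 wild-type and 3 heterozygous libraries. Wild-type replicate 2 has 39.6% claustrum-like nuclei and heterozygous replicate 2 has 45.6% of sub-cluster 1, while the layer 6 intratelencephalic-like share lies between 11.5% and 25% in every library.

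Heparan sulfate is built by chain polymerases, trimmed by N-deacetylase/N-sulfotransferases, sulfated at 2-O, 6-O and 3-O positions, and edited outside the cell by the endosulfatases Sulf1 and Sulf2. Of the 2 main chain polymerase genes, Ext2 ranged from 0.411 to 0.611 across the gene-rich sub-clusters and Ext1 from 0.917 in the thalamic-like to 9.50 in the layer 6b-like nuclei. Among the N-deacetylase/N-sulfotransferase genes, Ndst4 was at 5.39 in sub-cluster 1 and at most 0.464 in any other gene-rich sub-cluster, a 38.7-fold difference from the mean of the other gene-rich nuclei. Ndst3 was at 5.36 in the layer 5 extratelencephalic-like nuclei, 3.17 in sub-cluster 1 and 0 in the layer 6b-like nuclei. Among 6-O-sulfotransferase genes, Hs6st3 was at 10.8 in sub-cluster 3, 10.3 in the thalamic-like and 0.167 in the layer 6b-like nuclei. The endosulfatase gene Sulf1 was at 4.32 in the layer 6 intratelencephalic-like and 3.92 in the layer 6b-like nuclei, and Sulf2 was highest in the layer 5 extratelencephalic-like nuclei, at 1.49. Sulf1 was on the list that named the layer 6 intratelencephalic-like sub-cluster, so its high level there follows from the naming.

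Genes of 3-O-sulfotransferases other than Hs3st4 were present in the gene-rich nuclei, unevenly among sub-clusters. Hs3st4, limited to at most 4 by the rule, was still at 1.53 in the claustrum-like nuclei and 1.47 in sub-cluster 3, against 0.0850 in the layer 2/3-like nuclei. Hs3st2 averaged 1.41 ± 0.483 in gene-rich nuclei, 2.04 ± 0.334 in Hs3st4-high nuclei and 0.236 ± 0.0813 in unselected nuclei. Within the gene-rich nuclei Hs3st2 was at 3.38 in the layer 6b-like nuclei, 3.11 in sub-cluster 7, 0.307 in the layer 2/3-like nuclei and 0 in the thalamic-like nuclei. Hs3st1 was highest in sub-cluster 1, at 0.608, and in the thalamic-like nuclei, at 0.583. Hs3st3a1 and Hs3st3b1 were at 0.306 and 0.278 in the thalamic-like nuclei and at most 0.0417 in the other gene-rich sub-clusters. Hs3st5 was at 0.754 ± 0.241 in gene-rich and 1.67 ± 0.481 in Hs3st4-high nuclei, and Hs3st6 was listed at 0 in every gene-rich sub-cluster.

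**Figure D4:**
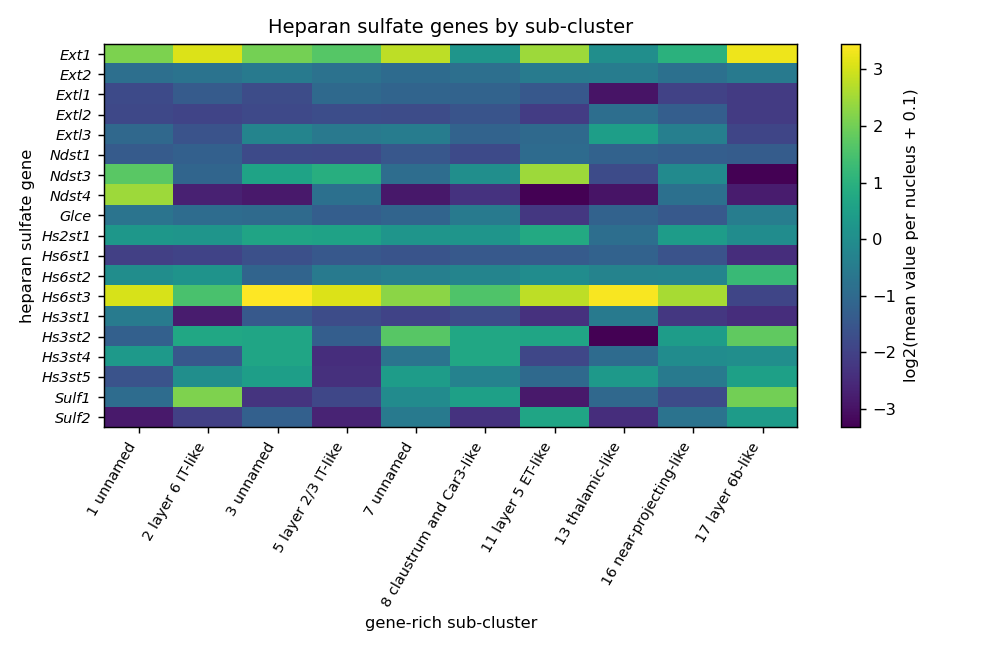
Heparan sulfate genes (rows) in the 10 gene-rich sub-clusters (columns), shaded by log2(mean value per nucleus + 0.1). Ndst4 is highest in sub-cluster 1, at 5.39, Sulf1 is high in the layer 6 intratelencephalic-like (4.32) and layer 6b-like (3.92) nuclei, and Hs6st3 is lowest in the layer 6b-like nuclei (0.167). Sulf1 was one of the markers that named the layer 6 intratelencephalic-like sub-cluster.

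Glutamate receptor subunits also differed by sub-cluster. The obligatory NMDA receptor subunit gene Grin1 was even, from 2.09 to 3.21. Among AMPA receptor subunits, Gria4 was at 17.1 in the claustrum-like and 1.04 in the layer 5 extratelencephalic-like nuclei, and Gria1 was at 11.0 in the layer 6 intratelencephalic-like and 0.917 in the thalamic-like nuclei. Grin2a, an NMDA subunit gene of mature synapses, was at 13.1 in the layer 2/3-like and 3.12 in the layer 6b-like nuclei. Grin3a, a subunit gene that lowers calcium entry, was at 2.98 in the claustrum-like nuclei and under 1 in every other gene-rich sub-cluster. The kainate receptor gene Grik1 was at 5.28 in the thalamic-like nuclei, and Grik3 was at 5.42 in the layer 6b-like nuclei. Grm8, a presynaptic metabotropic receptor gene, was at 11.3 in the near-projecting-like nuclei.

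Release genes are given by example. Snap25, the plasma-membrane fusion protein gene, ranged from 4.92 to 7.01 over the gene-rich sub-clusters, and the calcium sensor gene Syt1 from 15.9 to 31.0. Slc17a6 was at 3.00 in the thalamic-like, 0.808 in the near-projecting-like and at most 0.386 in the other gene-rich nuclei. The VGLUT3 gene Slc17a8 was at 0.346 in the near-projecting-like nuclei and at most 0.0219 in the other gene-rich sub-clusters. Unc13c, a vesicle priming gene, was at 2.71 in sub-cluster 1, and the complexin gene Cplx3 at 0.333 in the layer 6b-like nuclei. Slc17a6, Slc17a8 and Cplx3 were on the marker lists that named the thalamic-like, near-projecting-like and layer 6b-like sub-clusters. Their high levels there follow from the naming.

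Axon guidance receptor genes differed by sub-cluster as well. The ephrin receptor gene Epha6 was at 20.5 in sub-cluster 1, 11.1 in the layer 2/3-like and 0.703 in the claustrum-like nuclei. The netrin receptor gene Dcc was at 12.4 in the near-projecting-like and 0.0377 in the layer 5 extratelencephalic-like nuclei. The Slit receptor gene Robo1 was at 14.2 in the thalamic-like and 11.8 in the layer 5 extratelencephalic-like nuclei, and 0.554 in the claustrum-like nuclei. Unc5d was at 12 in sub-cluster 1 and 11.3 in the claustrum-like nuclei, but 0.226 in the layer 5 extratelencephalic-like and 0.208 in the layer 6b-like nuclei. The semaphorin co-receptor gene Nrp1 was highest in the layer 5 extratelencephalic-like nuclei, at 1.77. Among planar cell polarity partners of Celsr3, Fzd3, the frizzled receptor gene that acts with it in axon tracts, ranged from 0.226 to 0.876, and Prickle2 was at 8.31 in the thalamic-like and 1.88 in the claustrum-like nuclei. Of the activity genes, Bdnf was at 1.16 and Homer1 at 2.64 in the claustrum-like nuclei, their highest levels, and Nr4a1 was highest in the layer 5 extratelencephalic-like nuclei, at 0.717.

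The share of selected nuclei did not separate the genotypes. It was 4.25%, 1.36% and 4.81% of all nuclei in wild-type libraries and 7.26%, 1.08% and 2.14% in heterozygous libraries, from 329, 107, 389, 573, 90 and 190 nuclei. The means were 3.47% ± 1.86 and 3.49% ± 3.31 (SD, n = 3 per group, two-sided exact permutation p = 1). Counted against selected and Hs3st4-high nuclei together, the selected share was 64.3%, 73.3% and 67.4% in wild type and 60.9%, 59.6% and 50.0% in heterozygous libraries. Every wild-type share lay above every heterozygous share, with means of 68.3% ± 4.58 and 56.8% ± 5.95 (SD, n = 3, exact permutation p = 0.1, the smallest 3 against 3 can give). With the gene-poor nuclei left out of the selected nuclei, the shares were 52.7%, 55.2% and 58.0% against 53.4%, 48.3% and 40.4%. They overlapped (55.3% ± 2.66 and 47.4% ± 6.54, SD, n = 3, exact permutation p = 0.2). The Hs3st4-high nuclei were not divided in this way, so the comparison is filtered on the selected side only. Of the 65 nuclei with Hs3st4 at 5, 12.3% had fewer than 2500 genes. Gene-poor nuclei made up 38.0%, 55.1% and 33.2% of the selected nuclei in wild type and 26.4%, 36.7% and 32.1% in heterozygous libraries (exact permutation p = 0.2). The median number of genes in gene-rich nuclei was 3764.5, 3768.5 and 3668 against 3647.5, 3741 and 3679 (exact permutation p = 0.3).

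Celsr3, the targeted gene (chr9:108826320-108852969, plus strand, GRCm38, GENCODE annotation), was lower in the selected nuclei of every heterozygous library, but the difference did not pass the test. Its level was 0.137, 0.159 and 0.141 in wild-type libraries and 0.0925, 0.122 and 0.105 in heterozygous libraries, without overlap. The log2 change was -0.42 ± 0.23 (SE, 3 libraries per group, limma adjusted p = 0.755). In gene-rich nuclei the levels were 0.196, 0.354 and 0.192 against 0.118, 0.175 and 0.147, again without overlap, with means of 0.248 ± 0.0924 and 0.147 ± 0.0285 (SD, n = 3). The log2 change there was -0.67 ± 0.29 (SE, limma unadjusted p = 0.0455, adjusted p = 0.957), and it was -0.39 without wild-type replicate 2, which has 48 gene-rich nuclei. In gene-poor nuclei Celsr3 was at 0.0400, 0 and 0.0388 in wild type and 0.0199, 0.0303 and 0.0164 in heterozygous libraries, so the gene-poor nuclei held little of it. The Hs3st4-high nuclei, in which the gene fell under the filter, showed 0.148, 0.179 and 0.255 against 0.130, 0.0984 and 0.111. The layer 6 intratelencephalic-like sub-cluster was the only gene-rich one with at least 10 nuclei in every library. Its Celsr3 levels overlapped, at 0.308, 0.167 and 0.400 against 0.114, 0.308 and 0.0588. They rest on 26, 12 and 30 wild-type and 88, 13 and 17 heterozygous nuclei.

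Over all genes, limma called none changed between genotypes at an adjusted p under 0.05. In the selected nuclei 0 of 9655 genes were called (0%), the smallest adjusted p was 0.753, and 612 genes had an unadjusted p under 0.05, of which 279 were higher and 333 lower in heterozygous libraries. The share higher was 45.6%, against 31.7% with size factors. The groups did not overlap for 736 genes higher in heterozygous libraries (7.62%) and 459 lower (4.75%). In gene-rich nuclei 0 of 8258 genes were called (0%), the smallest adjusted p was 0.834, and 378 genes had an unadjusted p under 0.05, of which 109 were higher and 269 lower. The share of such genes that were higher, 28.8%, was 47.9% of 482 genes without wild-type replicate 1. Over all 6 libraries the groups of gene-rich nuclei did not overlap for 418 genes higher (5.06%) and 417 lower (5.05%). Hs3st4-high nuclei gave 0 of 7538 genes (0%), with 258 at an unadjusted p under 0.05. Of these 7538 genes, the groups did not overlap for 482 higher and 217 lower in heterozygous libraries. The labels call the libraries biological replicates without saying more, so the p-values measure the spread between these 6 libraries. All genes named below therefore did not pass the test, and those of smallest p are given as values.

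Mid1, a gene for a microtubule-associated ubiquitin ligase (chrX:169685199-170005736, GRCm38), was higher in every heterozygous library. Its level in the selected nuclei was 0.158, 0.224 and 0.141 in wild type and 0.337, 0.356 and 0.305 in heterozygous libraries, a log2 difference of 0.92 ± 0.21 (SE, limma adjusted p = 0.753). In gene-rich nuclei the levels were 0.0980, 0.167 and 0.0308 against 0.346, 0.263 and 0.225, a log2 difference of 1.62 ± 0.48 (SE, limma adjusted p = 0.834). In Hs3st4-high nuclei they were 0.0820, 0.0769 and 0.0479 against 0.351, 0.361 and 0.263, a log2 difference of 2.10 ± 0.31 (SE, limma adjusted p = 0.703). The layer 6 intratelencephalic-like nuclei had 0.0385, 0 and 0 against 0.273, 0.231 and 0.294. They numbered 26, 12 and 30 in wild-type and 88, 13 and 17 in heterozygous libraries, so low levels there are coarse. In the claustrum-like nuclei, where 4 libraries held at least 10 nuclei, Mid1 was at 0.400, 0.316 and 0.0556 in wild type and 0.194 in heterozygous replicate 1. Gene-poor nuclei overlapped, at 0.256, 0.271 and 0.364 against 0.311, 0.515 and 0.475. The antisense gene Gm15726, which lies inside Mid1 on the other strand and was too low to be tested, was at 0.00304, 0 and 0.00257 against 0.0489, 0.0222 and 0.0368. Whether strand was used in counting was not given in the sources used here, so reads of the 2 genes may not be fully separated. The nearby gene Hccs did not go the same way, at a log2 difference of -0.37 ± 0.28 (SE, limma adjusted p = 0.805).

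Rpl29, Aste1, 1700080N15Rik and Gm14377 were examined because earlier results of these data named them. Rpl29, a ribosomal protein gene 2.4 Mb from Celsr3, was at 0.605, 0.308 and 0.337 in wild type and 0.227, 0.167 and 0.189 in heterozygous libraries. Every heterozygous library lay below every wild-type library, and the log2 difference was -1.01 ± 0.26 (SE, limma adjusted p = 0.753). It was -0.98 ± 0.34 in gene-rich and -0.82 ± 0.24 in Hs3st4-high nuclei, also without overlap and without passing the test. In the layer 6 intratelencephalic-like nuclei, 12 to 88 per library, Rpl29 overlapped, at 0.615, 0.25 and 0.167 against 0.114, 0.154 and 0.294. Ribosomal protein genes have processed copies elsewhere in the genome, and how reads were split among them was not given. Aste1, 3.43 Mb from Celsr3, overlapped between groups, with a log2 difference of -0.55 ± 0.26 (SE, limma adjusted p = 0.753). It did not overlap in Hs3st4-high nuclei, at 0.355, 0.359 and 0.372 against 0.196, 0.279 and 0.258, a log2 difference of -0.57 ± 0.19 (SE, limma adjusted p = 0.997). The antisense gene 1700080N15Rik, on chromosome 2, was at 0.466, 0.521 and 0.523 against 0.282, 0.316 and 0.341 in gene-rich nuclei, a log2 difference of -0.67 ± 0.17 (SE, limma adjusted p = 0.834). Gm14377, too low to be tested, was at 0.125, 0.0654 and 0.116 against 0.0803, 0.0444 and 0.0684 in selected nuclei, which overlapped. It did not overlap in gene-rich nuclei, at 0.191, 0.125 and 0.162 against 0.102, 0.0702 and 0.101, or in Hs3st4-high nuclei, at 0.109, 0.103 and 0.106 against 0.0815, 0.0984 and 0.0421.

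Several genes of smallest p in the selected nuclei were glial genes. Apoe, the main lipid carrier of astrocytes and microglia, was at 13.0, 13.2 and 10.2 in wild type and 6.43, 6.07 and 8.76 in heterozygous libraries, a log2 difference of -0.79 ± 0.18 (SE, limma adjusted p = 0.753). In gene-rich nuclei Apoe was at 1.91, 1.35 and 1.21 against 1.14, 0.526 and 0.915, without overlap, a log2 difference of -0.83. The astrocytic clusterin gene Clu differed by -0.80 (-0.48 in gene-rich nuclei), the microglial complement gene C1qc by -1.06, the NMDA subunit gene Grin2c by -1.03 and Gm20713, an RNA of unknown function, by -1.04 on the log2 scale. An alternative with equal weights used only sub-clusters 2 (layer 6 intratelencephalic-like) and 6 (microglia-like), with 337 nuclei. The differences there were 0.033 for Apoe and 0.10 for Clu. Since no astrocyte-like sub-cluster was in it, it does not describe the selected nuclei as a whole. With Slc17a7 of at least 4 the difference of Gm20713 turned to 0.48. Gm20713 was at 2.16 ± 0.546 (SD, n = 3) in wild-type selected nuclei and 0.209 ± 0.113 in wild-type gene-rich nuclei, so it came mainly from the gene-poor sub-clusters. The noncoding genes Gm32036 and Gm16337 differed by -1.14 and -0.87, and Gm16337 by -0.27 in gene-rich nuclei. Alongside these genes, the summed astrocyte markers of the selected nuclei were 12.6 to 23.1 in wild-type and 9.49 to 11.1 in heterozygous libraries. The microglial sums were 3.24 to 4.60 against 2.18 to 2.71, and the endothelial sums 0.972 to 1.47 against 0.644 to 0.946, none of which overlapped. Microglial sums did not overlap in Hs3st4-high nuclei either, at 0.692 to 0.910 against 0.553 to 0.668, or in unselected nuclei, at 1.72 to 2.07 against 1.51 to 1.60, and did overlap in gene-rich nuclei, at 0.667 to 0.988 against 0.426 to 0.754. The 4 neuroblast markers went the other way, also without overlap: their sums were 0.673 to 0.874 in wild type and 1.03 to 1.13 in heterozygous selected nuclei, 1.11 to 1.23 and 1.31 to 1.63 in gene-rich nuclei, 1.08 to 1.41 and 1.46 to 1.69 in Hs3st4-high nuclei, and 0.437 to 0.581 and 0.659 to 0.761 in unselected nuclei. Dcx and Sox11 made up most of these sums, while Dlx2 averaged 0.00129 and Igfbpl1 0.0145 in gene-rich nuclei. Within the gene-poor nuclei alone the astrocyte sums overlapped, at 30.4 to 38.9 against 23.7 to 32.4. The microglial sums there did not, at 7.07 to 7.87 against 6.09 to 6.48. Sums of 2 neuronal lists did not overlap in gene-poor nuclei either. They were 1.41 to 1.52 against 1.77 to 2.00 for layer 5 extratelencephalic and 0.373 to 0.535 against 0.697 to 0.954 for near-projecting markers. Astrocyte and endothelial sums also overlapped in gene-rich, Hs3st4-high and unselected nuclei. In unselected nuclei they were at 11.2 to 12.3 against 10.2 to 12.1 and 0.824 to 0.941 against 0.528 to 0.837. In selected nuclei the oligodendrocyte sums overlapped, at 9.12 to 13.5 against 5.09 to 12.4. So did the oligodendrocyte precursor sums, at 0.386 to 0.850 against 0.278 to 0.858. The sums of all remaining marker lists overlapped in selected nuclei as well. For comparison, the groups did not overlap for 7.62% of single genes tested there in the higher and 4.75% in the lower direction. The part of the glial and neuroblast markers in each gene's difference was not tested.

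Genes of smallest p outside the glial ones included both directions. Ndufb9, a subunit gene of mitochondrial complex I, was at 0.915, 0.804 and 0.635 in wild type and 0.457, 0.333 and 0.437 in heterozygous selected nuclei, a log2 difference of -0.92 ± 0.19 (SE, limma adjusted p = 0.753), and differed by -0.73 in gene-rich nuclei. Antxr1, a collagen-binding receptor gene, was 0.86 higher on the log2 scale in selected and 0.79 higher in gene-rich nuclei. Ahr, the aryl hydrocarbon receptor gene, was at 0.116, 0.121 and 0.134 against 0.222, 0.233 and 0.268, a log2 difference of 0.91 ± 0.20 (SE, limma adjusted p = 0.753). Its difference was 0.71 in gene-rich and -0.18 in Hs3st4-high nuclei.

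The 12 genes of smallest p in the gene-rich nuclei alone are given as values. Gm15083 was at 0.706, 1.04 and 0.615 in wild type and 0.379, 0.281 and 0.364 in heterozygous libraries, a log2 difference of -1.16 ± 0.23 (SE, limma adjusted p = 0.834). Gm48749 differed by -1.45, Gm15680 by -1.19, Gm15584 by -1.02, 4933423P22Rik by -1.01, 1700110K17Rik by -0.89, Gm19710 by -0.86, Gm48747 by -0.75 and Gm43376 by -0.65, each at an adjusted p of 0.834. Flrt2, which encodes an adhesion protein that binds Unc5 receptors and latrophilins, was at 1.58, 1.04 and 1.48 in wild type and 2.20, 2.44 and 2.27 in heterozygous libraries. Its log2 difference was 0.77 ± 0.18 (SE, limma adjusted p = 0.834), and 0.53 in Hs3st4-high nuclei. Vgll4, a cofactor of TEAD transcription factors, was 0.76 higher, and Nrip3, a nuclear receptor-interacting protein gene, was lower on the log2 scale (a difference of -0.92), with 0.05 in Hs3st4-high nuclei.

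Whether the genotype difference itself differed between the selected and the Hs3st4-high nuclei was tested per library. No gene was called, at 0 of 7498 (0%), with a smallest adjusted p of 0.998 and 219 genes at an unadjusted p under 0.05. Mid1 had the smallest p, and its log2 difference was 1.19 lower in the selected nuclei (-1.19 ± 0.23, SE, limma adjusted p = 0.998). Gene-poor nuclei carried Mid1 in both genotypes, and its difference was 1.62 in gene-rich and 2.10 in Hs3st4-high nuclei. The part of the gene-poor nuclei in this was not tested. Dtx1, a regulator of Notch signalling, differed by 1.12 ± 0.30, Ahr by 1.08 ± 0.26, Gnal, the striatal olfactory-type G protein gene, by -0.99 ± 0.22, Dpy30 by -0.77 ± 0.22 and Fopnl by -0.76 ± 0.23 (SE, limma adjusted p = 0.998 for each).

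**Figure D5:**
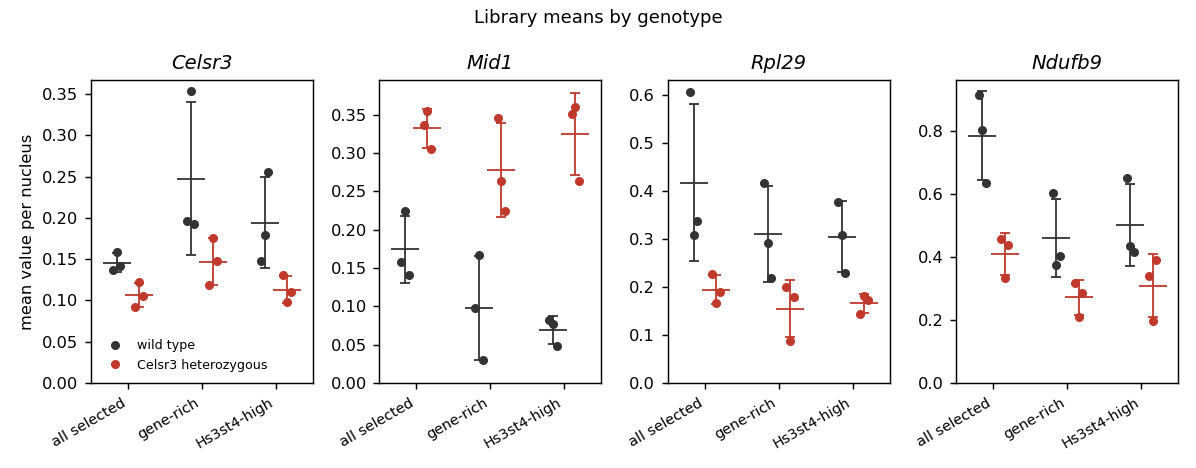
Mean value per nucleus of Celsr3, Mid1, Rpl29 and Ndufb9 in each library, for all selected, gene-rich and Hs3st4-high nuclei. Points are libraries and bars the mean ± SD of 3 libraries per genotype. The groups do not overlap for any of the 4 genes in any of the 3 sets, no tested difference passed, and Celsr3 was not tested in Hs3st4-high nuclei.

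No member of any gene list was called in either the selected or the gene-rich nuclei. The lists were chosen with earlier results of these data known, and their counts stand beside a median log2 difference of 0.04 over all genes tested in selected nuclei and of -0.0003 in gene-rich nuclei. Of all genes tested, 57.2% were higher in heterozygous selected nuclei and 50.0% in heterozygous gene-rich nuclei. Of 23 heparan sulfate genes, 19 were tested. In heterozygous selected nuclei 16 were higher and 3 lower, with a median of 0.23. In gene-rich nuclei 15 were higher and 4 lower, with a median of 0.16. Hs3st4, which the rule limits, is counted among the higher genes in both sets, at 0.13 and 0.07. Sulf1 was at 0.690, 0.757 and 0.645 in wild type and 0.979, 1.09 and 0.868 in heterozygous selected nuclei, without overlap, a log2 difference of 0.48 ± 0.15 (SE, limma adjusted p = 0.753). In gene-rich nuclei Sulf1 overlapped between groups, with a log2 difference of 0.33, and Hs2st1, the 2-O-sulfotransferase gene, was without overlap at 0.30.

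The other lists lay nearer to the median of all genes in the gene-rich nuclei. Of 24 glutamate receptor genes, 22 were tested in selected nuclei (15 higher, 7 lower, median 0.10) and 20 in gene-rich nuclei (14 higher, 6 lower, median 0.10). Grik3 was 0.41 higher on the log2 scale in selected and 0.15 in gene-rich nuclei. It differed by -0.16 in the alternative with equal weights, which used only sub-clusters 2 and 6. Of 25 release genes, 23 were tested, with medians of 0.11 and 0.03. Slc17a7, on which the rule selected, is counted among them, at 0.06 and 0.03. Of 23 axon guidance receptor genes 22 were tested, with medians of 0.16 and 0.04. The priming factor gene Unc13b was 0.44 higher in selected nuclei, without overlap, and 0.27 higher in gene-rich nuclei, where it overlapped. Epha7 was at 1.74, 1.83 and 2.13 in wild type and 2.39, 2.84 and 2.14 in heterozygous gene-rich nuclei, a log2 difference of 0.37 ± 0.16 (SE, limma adjusted p = 0.957). Of 15 planar cell polarity partners, 11 were tested in selected and 9 in gene-rich nuclei, with medians of 0.21 and 0.01. Ptk7, a receptor-like co-factor of planar cell polarity, was 0.56 higher in selected nuclei, without overlap, but 0.17 without wild-type replicate 2, in which it was at 0.0561 against 0.136 to 0.178 in the other 5 libraries. Dvl3, a Dishevelled gene, was 0.32 higher in gene-rich nuclei, without overlap, the highest of 0.13 to 0.32 over all settings. Of 25 cortical transcription factors, 22 and 18 were tested, with medians of -0.002 and -0.02, and of 17 immediate early genes 9 and 7, with medians of 0.01 and 0.09. Egr1 was at 0.260, 0.208 and 0.181 against 0.282, 0.333 and 0.318 in gene-rich nuclei, a log2 difference of 0.52 ± 0.20 (SE, limma adjusted p = 0.957). In selected nuclei Egr1 overlapped between groups, and over all settings its difference was 0.11 to 0.52. Car10 differed by 0.07 ± 0.17 on the log2 scale in gene-rich nuclei (SE, limma adjusted p = 0.991).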

How the data were processed

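The authors deposited 1 table of 24841 genes and 48834 nuclei, and per the labels the 6 libraries were 10x Genomics 3′ v3.1 libraries sequenced together. Per the submitters' processing notes, Cell Ranger and Seurat 4.1 were used, with builds mm10 and GRCm38; the steps between are not given in the sources used here. The deposited values were handled as a score (whole numbers per gene and nucleus, already corrected for depth): totals per nucleus vary by 10.7%, and in 10.0% of nuclei at least 10 of 13152 rare genes (mean below 0.05) stand at 2 or 3 and none at 1, which raw counts do not give. In gene-poor selected nuclei that share is 36.6%. All columns were mapped to a library by name, and no filter was applied beyond the rule.

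The members and lists were chosen with earlier results of these data known. Values were averaged per library and tested as log2(mean + 0.01) with limma 3.58.1 (R 4.3.3, trended empirical Bayes), heterozygous against wild type, 3 libraries each, with Benjamini-Hochberg adjustment over all genes with a mean of at least 0.02 and a summed value averaging at least 30 per library. Such fold changes understate low genes. Shares were compared by two-sided exact permutation. Sub-clusters came from 2000 variable genes, 30 components, 15 neighbours and Leiden resolution 0.6 (scanpy 1.11.5, igraph 0.11.9, scikit-learn 1.9.0, numpy 2.4.6, Python 3.11.15), and a gene leads a sub-cluster by fold at a mean of at least 0.3. The rule for naming them was set after they were seen. Scrublet scores were computed per library at an expected rate of 0.06; 1.06% to 1.90% of nuclei per library had a score above 0.25, none was removed, and removal was an alternative. Named genes were Celsr3, Slc17a7, Car10 and Hs3st4, the 12 of smallest p per fit since fewer than 10 were called, 6 for the difference test, 7 named by earlier results, the list members of largest non-overlapping change, and the 15 markers of largest fold per comparison with a mean of at least 0.3, of which the text gives examples. The fits were also run on simulated data with the same expected level per gene in every library, apart from planted changes. Differences in sub-cluster makeup between libraries were not simulated, so that run cannot give the power of the real comparison. Alternatives were the pseudocount, filters, size factors, array weights, a replicate block, leaving out libraries, a stricter rule and sub-cluster weights.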

Additional observations from a re-analysis of the deposited data

How the results depend on the processing

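No alternative gave a called gene, for the genotype in selected nuclei or for its difference from Hs3st4-high nuclei. The smallest limma adjusted p over them was 0.0696, with equal weights for sub-clusters. That fit took 2401 genes of sub-clusters 2 and 6, the only 2 with at least 10 nuclei in every library. Leaving out each library in turn gave 437 to 864 genes at an unadjusted p under 0.05. Without a filter on low values 1216 of 23316 genes had such a p, and with Slc17a7 of at least 4 it was 150 of 3840, the second being a test of fewer nuclei and genes. With size factors the share of such genes that were higher in heterozygous libraries was 31.7%, against 45.6%.

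The difference in the share of selected nuclei, 0.0187 points, was -11.5 points as a share of selected and Hs3st4-high nuclei together. The latter became -7.92 with gene-poor nuclei left out of the selected side only, where the groups overlapped. With each library left out, the difference in the share of all nuclei was -1.87 to 1.23. It turned negative without wild-type replicate 2 (-1.04) and without heterozygous replicate 1 (-1.87). The difference in median genes, 216.5, was -44.5 in gene-rich nuclei and -5.17 to 328.8 with each library left out, negative without wild-type replicate 2. For single genes the log2 difference turned in these cases, and the cause was not tested. Slc17a7 was -0.0067 without heterozygous replicate 2 (-0.0067 to 0.11 with each library left out). Equal weights were given to sub-clusters 2 and 6 alone, layer 6 intratelencephalic-like and microglia-like, with 337 nuclei. There Car10 was -0.17, Apoe 0.033, Clu 0.10, Gnal 0.15 and Grik3 -0.16, which does not describe all selected nuclei. With Slc17a7 of at least 4, Hs3st4 was -0.33 and Gm20713 0.48. Gnal was 0.07 without wild-type replicate 2, 0.13 without heterozygous replicate 3 (-0.29 to 0.13 with each library left out) and 0.50 in gene-rich nuclei. Dpy30 was -0.0068 with size factors, -0.073 without wild-type replicate 3 (-0.073 to 0.16 with each library left out) and -0.010 in gene-rich nuclei.

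Celsr3 stayed lower throughout, at -0.52 to -0.33 in selected and -0.82 to -0.39 in gene-rich nuclei with each library left out, and Mid1 stayed higher, at 0.78 to 1.10 and 1.04 to 2.10. Deviations of same-numbered libraries correlated at 0.0982, 0.0605 and -0.151, and those of differently numbered libraries at -0.241 to 0.215. With so few libraries, and sub-cluster makeup that differs between them, these values cannot tell whether same-numbered libraries share a batch. Both replicate 2 libraries had the lowest selected share of their genotype, at 1.36% and 1.08%. With a replicate block 0 genes were called, 680 had an unadjusted p under 0.05, the smallest adjusted p was 0.640, and Celsr3 was at -0.42 (limma adjusted p = 0.739).

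Unknown depth limits what can be said of low genes: no counting interval was given, and in gene-poor nuclei a value of 2 is near the smallest step. Heterozygous replicate 2 and wild-type replicate 2 had 57 and 48 gene-rich nuclei, so sub-cluster shares there are coarse.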
